A study of Mus musculus with 4 samples.

Results

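The TRIM (tripartite motif) family was taken as the protein-coding rows of the gene count table whose symbol is Trim followed by a digit. The rule gave 68 of 54532 rows. One further matching row, Trim30e-ps1, is a pseudogene with no counts and was left out. From textbook knowledge, 15 of the 68 were listed as interferon-linked: Trim5, Trim6, Trim12a, Trim12c, Trim14, Trim21, Trim25, Trim26, Trim30a, Trim30b, Trim30c, Trim30d, Trim34a, Trim34b and Trim56. The other 53 members form the rest of the family. The list was chosen with earlier results of these data known. A member of the list is not thereby known to be interferon-induced in dendritic cells.

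RNA was sequenced from DC2.4 cells, an immortalised mouse dendritic cell line, after 24 h with ginsenoside Rb1 at 10 uM (2 libraries) or with vehicle for the same time (2 libraries). Ginsenoside Rb1 is a saponin of ginseng root, and Rb1 below always means the compound and not the retinoblastoma gene. The libraries held 17829784 to 18641021 counts and 18762 to 19015 detected genes. The design asked which transcripts differ between Rb1-treated and vehicle-treated cells of this line.

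TRIM proteins typically carry a RING domain, B-boxes and a coiled coil at the amino-terminal end, and the RING domain makes most of them ubiquitin ligases. The carboxy-terminal end differs between members and sets what they bind; the commonest version is the PRY-SPRY domain, and a small branch has a PHD finger and bromodomain and works on chromatin. Many PRY-SPRY members are transcribed in response to interferon, and several act in antiviral defence by ubiquitinating sensors such as RIG-I, by binding retroviral capsids or by capturing antibody-coated viruses. Other members work in centriole, peroxisome, transcription and cell-cycle control and are transcribed without interferon.

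Interferon acts on many of its target genes through the interferon-stimulated response element, whose core is a repeat of GAAA; GAAA, any 2 bases and GAAA again were searched on both strands. The windows were the RefSeq (GRCm38.p6) promoter windows, 250 bases before to 50 after each annotated start. The core was present in 3.44% of 32851 windows. Among tested genes with a window it was present in 385 of 9612 (4.01%), in 5.56% of those lower with Rb1 and in 3.26% of those higher. Of the interferon-linked members tested, 8 of the 12 with a window held a match (66.7%), against 1 of 18 other members (5.56%). The stretches around the matches are printed in the direction of the gene, with the core or its reverse complement in capitals, to show how alike they are between neighbouring genes.

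Upstream of the start, the matches were in these stretches: Trim30a at chr7:104465200-104465249 (minus strand), Trim30d at chr7:104507861-104507910 (minus), Trim12c at chr7:104353350-104353398 (minus), Trim5 at chr7:104288126-104288175 (minus) and Trim26 at chr17:36836966-36837021 (plus). In Trim26 a pair of cores overlaps.
Trim30a: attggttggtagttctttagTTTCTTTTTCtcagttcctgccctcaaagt
Trim30d: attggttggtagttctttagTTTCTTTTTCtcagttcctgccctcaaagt
Trim12c: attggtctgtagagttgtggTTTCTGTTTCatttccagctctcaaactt
Trim5: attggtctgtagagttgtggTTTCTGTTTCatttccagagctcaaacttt
Trim26: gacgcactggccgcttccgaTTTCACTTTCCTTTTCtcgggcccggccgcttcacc

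In 4 further members the match lay just past an annotated RefSeq start. These were Trim12a at chr7:104315469-104315492 (minus), Trim34a at chr7:104244460-104244483 (plus), Trim21 at chr7:102565447-102565476 (minus), again an overlapping pair, and Trim2 at chr3:84212794-84212817 (minus). The counted gene model of Trim12a ends at 104315466 on the minus strand, so relative to that model its stretch lies upstream.
Trim12a: gttgtggTTTCTGTTTCatttcca
Trim34a: tttggagTTTCAGTTTCttttctc
Trim21: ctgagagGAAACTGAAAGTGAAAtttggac
Trim2: gctttggTTTCCTTTTCtctaaga

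The Trim30a and Trim30d stretches were identical over all 50 bases, and their 250 bases before the start were identical in 227 of 255 alignment columns (89.0%). Trim12c and Trim5 shared 47 of 49 bases of the stretch, and 220 of 270 alignment columns (81.5%). Counted from the annotated start, with negative positions before it, the core of Trim30a lay at -36 to -27, that of Trim30d at -41 to -32, that of Trim12c at -29 to -20 and that of Trim5 at -49 to -40. In Trim26 the pair lay farther out, at -160 to -145. Trim25, Trim56, Trim30b and Trim30c had a window with no such letters, and Trim14 had no window. A second motif, the core of the gamma-activated site (TTCNNNGAA, its own reverse complement), was present in 1 of the 12 interferon-linked windows (Trim30c) and in 2 of the 18 others, against 8.22% of tested genes. These matches are letters in a window and not measured binding.

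**Figure D1:**
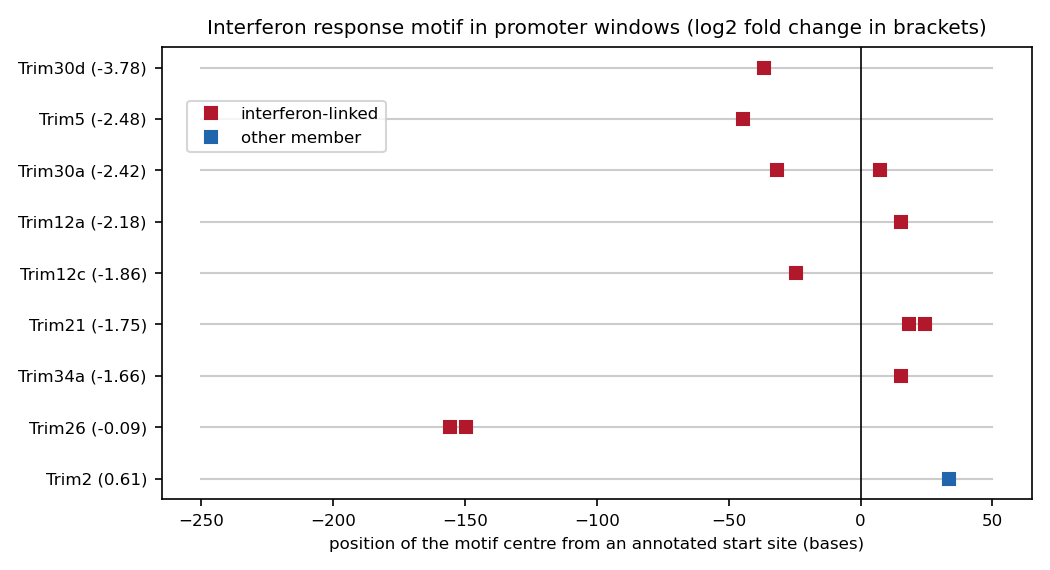
Position of each match to the response-element core (squares, base positions of the motif centre on the x axis, negative before the annotated start) in the promoter windows of 9 tested Trim genes, with the log2 fold change of Rb1 over vehicle in brackets. 8 of the 9 genes are interferon-linked, and matches of 7 of these lie within 50 bases of an annotated start, with Trim26 farther upstream.

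Levels are given as TMM-normalised CPM (counts scaled to library size), and calls rest on an adjusted p under 0.05 from edgeR's quasi-likelihood test over the 13518 genes with enough counts. Of the 68 members, 40 were tested. With Rb1, 10 were higher and 20 lower, and 10 did not pass the threshold. Over all genes tested, 72% were called, 35.7% higher and 36.3% lower, so the number of changed members is close to the background. The median log2 fold change was -0.19 over the 40 members, against -0.01 over all genes tested. The Rb1 and vehicle libraries did not overlap in any of the 30 called members, nor in 86.3% of all genes tested.

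Of 13 interferon-linked members tested, 11 were lower, 1 was higher (Trim56) and 1 did not pass (Trim26), with a median log2 fold change of -1.86. The 27 other members tested gave 9 higher, 9 lower and 9 that did not pass, with a median of 0.11. Changes of at least 2-fold were called in 9 interferon-linked members, all lower, and in 6 higher and 5 lower other members. Over all genes tested 14.2% were at least 2-fold higher and 16.2% at least 2-fold lower.

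Within replicate 1 the median log2 ratio of the interferon-linked members was -1.55 (11 of 13 below 0), and within replicate 2 it was -1.87 (12 of 13 below 0). For the other members these medians were 0.14 and 0.09. With library totals used for scaling, the median of all genes was 0.23 and the family split into 15 higher and 16 lower, with 1 higher and 10 lower among interferon-linked members and 14 higher and 6 lower among the others. Of all genes tested, 45.3% were higher and 27.1% lower under that scaling. A total of 5 members had enough counts only through the vehicle libraries (Trim30b, Trim30c, Trim5, Trim29 and Trim66) and so had to be lower to be tested. Over the 35 that reached the filter in both groups, 10 interferon-linked members gave 8 lower and 1 higher (median -1.71), and 25 others gave 7 lower and 9 higher (median 0.16).

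**Figure D2:**
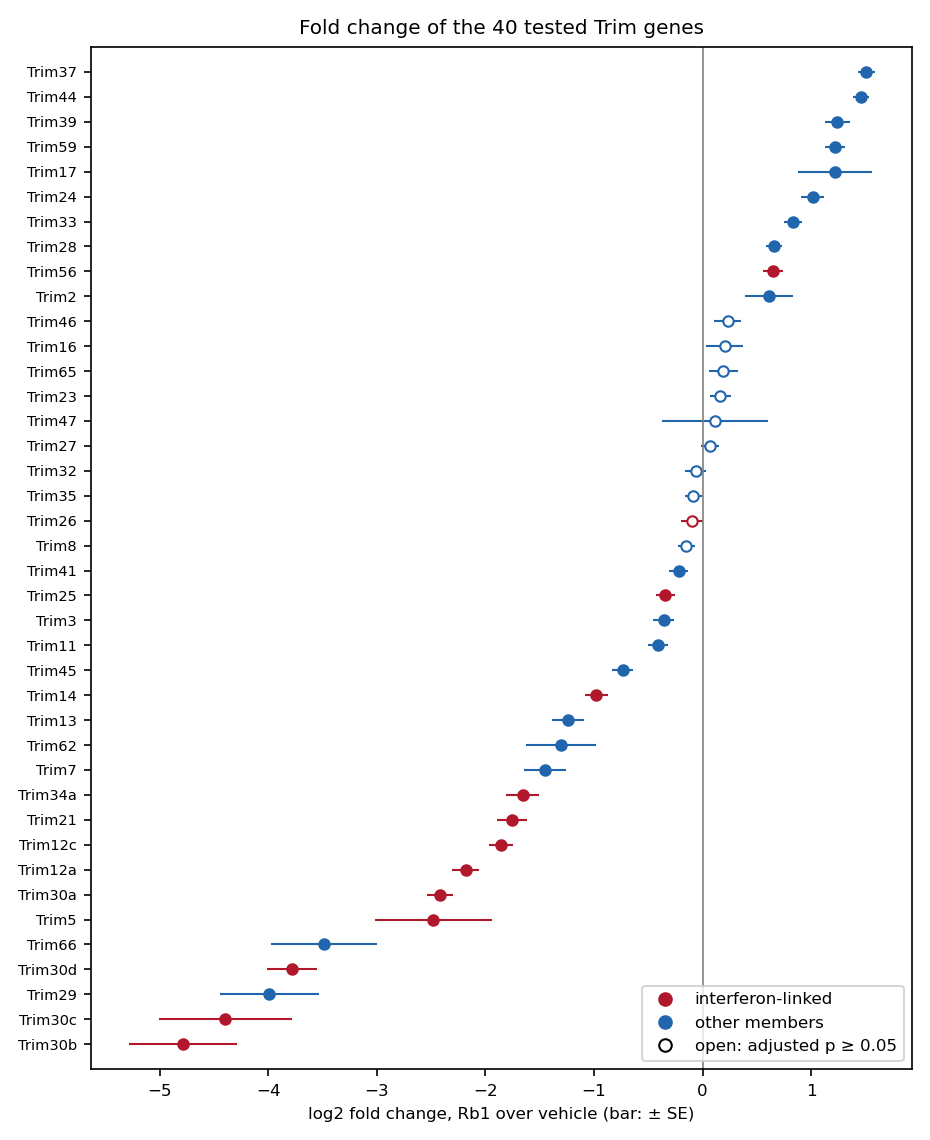
Log2 fold change, Rb1 over vehicle, of the 40 tested Trim genes, ordered by value; bars are ± SE, red marks interferon-linked and blue the other members, and open points did not pass an adjusted p of 0.05. Interferon-linked genes fill most of the lower end, where Trim30b stands at -4.79, while Trim37 leads the upper end at 1.51 and Trim56 is the one red point that was called higher.

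The Trim30 genes hold the 3 lowest log2 fold changes of the interferon-linked members tested. Of these, Trim30b and Trim30c had enough counts only through the vehicle libraries and so had to be lower to be tested. Among the interferon-linked members that reached the filter in both groups, Trim30d was lowest at -3.78. Trim30a (ENSMUSG00000030921, chromosome 7, 104409025 to 104465193, minus strand, GRCm38), whose mouse product restrains Toll-like receptor signalling, had 19.8 and 15.1 CPM in the Rb1 libraries and 90.0 and 96.3 CPM in the vehicle libraries. The groups lay far apart. Its mean was 17.4 ± 3.34 CPM with Rb1 and 93.2 ± 4.44 CPM with vehicle (SD, n = 2 each), 5.35-fold lower in Rb1-treated cells (-2.42 ± 0.12 SE on the log2 scale, adjusted p 9.7e-09). Per length it ranked 19 in the family with Rb1 and 5 with vehicle, at 4.23 ± 0.815 FPKM and 22.5 ± 1.20 FPKM.

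The other Trim30 genes lie beside it. Trim30d (104470014 to 104507849) had 0.799 and 0.671 CPM with Rb1 and 10.1 and 10.2 CPM with vehicle, 13.8-fold lower (log2 fold change -3.78 ± 0.23, adjusted p 6.1e-08). Trim30b had 0.150 and 0.0516 CPM with Rb1 and 3.05 and 2.91 CPM with vehicle (log2 fold change -4.79 ± 0.50, adjusted p 4.8e-06). Trim30c had 0.250 and 0 CPM with Rb1 and 3.05 and 2.56 CPM with vehicle (log2 fold change -4.40 ± 0.61, adjusted p 5.1e-05). No Rb1 library reached the level of a vehicle library in any of these genes. For Trim30b and Trim30c this follows largely from how they passed the count filter. Of their 50-base transcript words, 5.98% of those of Trim30a and 7.49% of Trim30d occur in another gene, and under 1% of those of Trim30b and Trim30c. Both low genes rest on few reads, since Trim30b had 3 and 1 counts with Rb1 and 51 and 49 with vehicle, and Trim30c had 5 and 0 counts with Rb1 and 51 and 43 with vehicle. A count of 0 allows up to 3 counts, or 0.150 to 0.180 CPM, so their fitted folds are approximate. Without Rb1 replicate 1 the log2 fold change was -8.63 for Trim30c and -5.66 for Trim30b, and without Rb1 replicate 2 it was -3.45 and -4.25, each still called.

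Mouse has no single counterpart of human TRIM5, the retroviral capsid restriction factor, but a small group of related genes, Trim5, Trim12a and Trim12c. Trim12a had 7.25 and 6.45 CPM with Rb1 and 32.4 and 29.7 CPM with vehicle (log2 fold change -2.18 ± 0.12, adjusted p 3.6e-08). Trim12c had 12.4 and 13.3 CPM with Rb1 and 43.5 and 49.8 CPM with vehicle (log2 fold change -1.86 ± 0.11, adjusted p 4.4e-08). Trim5 itself was near the limit of detection, with 0.150 and 0.258 CPM in Rb1 libraries and 0.958 and 1.37 CPM in vehicle libraries (log2 fold change -2.48 ± 0.54, adjusted p 0.0014). The groups did not overlap in any of them, though Trim5 had enough counts only through the vehicle libraries. These sequences are alike: of the 50-base words in their GENCODE M21 transcripts, 36.3% of those of Trim5, 33.0% of Trim12c and 10.4% of Trim12a occur in another gene, so reads may have been split between them.

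Trim34a, a relative of human TRIM34, lies in the same stretch of chromosome 7. It had 4.55 and 4.28 CPM with Rb1 and 14.3 and 13.6 CPM with vehicle (log2 fold change -1.66 ± 0.15, adjusted p 1.6e-06). Of its 50-base words 39.8% occur in Trim34b, for which the share is 56.8%. Trim34b had 5 and 8 counts with Rb1 and 19 and 1 counts with vehicle and was not tested.

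These genes form one cluster of 289 kb that runs from Trim6 (start 104218793) over Trim34a, Trim5, Trim12a, Trim34b, Trim12c, Trim30b, Trim30c and Trim30a to Trim30d (end 104507849). Of its 10 Trim genes 8 were tested, and all 8 fell in Rb1-treated cells (median log2 fold change -2.45). Their log2 fold changes lay between -4.79 and -1.66. Trim6 had no counts in any library. The summed level of the cluster was 45.6 and 40.5 CPM in Rb1 libraries and 198.6 and 206.5 CPM in vehicle libraries. The 5 of its genes that reached the filter in both groups had a median of -2.18. Neighbours in a cluster share sequence and chromosome, and their counts are not independent results.

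**Figure D3:**
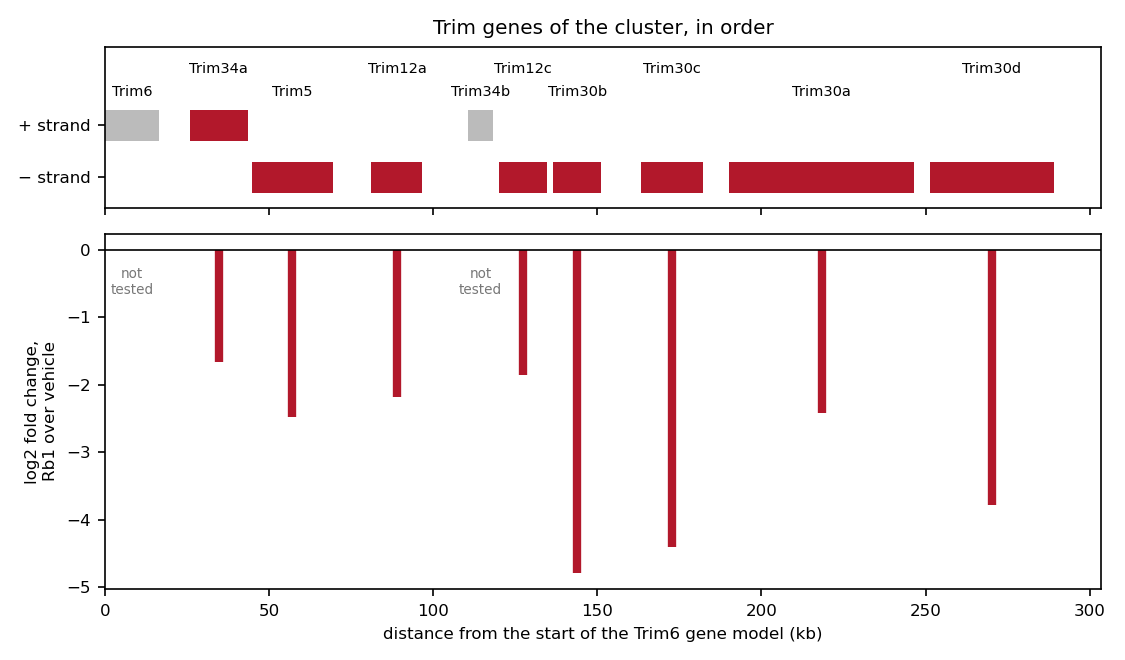
Gene models of the 10 Trim genes of the chromosome 7 cluster (top, kb from the start of Trim6) and, for the 8 tested, the log2 fold change of Rb1 over vehicle (bottom). All 8 lie below 0, from -1.66 for Trim34a to -4.79 for Trim30b, and the Trim30 genes occupy the far end from Trim6.

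Outside that cluster, 3 of the 5 interferon-linked members were lower, 1 was higher and 1 did not pass, with a median of -0.34. Trim21, the cytosolic receptor for antibody on incoming viruses, lies on chromosome 7 at 102557921 to 102565486. It had 7.40 and 5.98 CPM with Rb1 and 21.5 and 23.7 CPM with vehicle (log2 fold change -1.75 ± 0.14, adjusted p 5.8e-07). Trim14, an adaptor of mitochondrial antiviral signalling that has no RING domain, had 22.8 and 27.8 CPM with Rb1 and 51.5 and 48.2 CPM with vehicle (log2 fold change -0.98 ± 0.11, adjusted p 6.7e-06). In both genes the groups were well separated. The Trim14 model overlaps Nans on the other strand, and the sources do not say whether reads were counted by strand.

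Trim25, the ligase that ubiquitinates RIG-I and also attaches ISG15 to proteins, had the highest level per length of the family in both groups, at 59.1 ± 0.435 FPKM with Rb1 and 74.3 ± 8.35 FPKM with vehicle (SD, n = 2 each). It had 342 and 339 CPM with Rb1 and 399 and 464 CPM with vehicle. The vehicle libraries differed more from each other than the Rb1 libraries did, and the groups did not overlap. The log2 fold change was -0.34 ± 0.08 (adjusted p 0.0034), and this call did not hold with library totals (-0.10, adjusted p 0.351) or without Rb1 replicate 2 (adjusted p 0.0564).

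Trim26, a ligase reported to act on the transcription factor IRF3, had 77.1 and 75.6 CPM with Rb1 and 72.3 and 90.7 CPM with vehicle, so the Rb1 libraries fell between the vehicle libraries. Its log2 fold change of -0.09 ± 0.10 did not pass (adjusted p 0.428). The value depended on the vehicle library: it was -0.26 (adjusted p 7.0e-05) without vehicle replicate 1 and 0.08 (adjusted p 0.267) with vehicle replicate 2 left out. With the trend of counts on gene length removed from each library it was called lower, at -0.43 (adjusted p 0.00025). Trim26 holds the overlapping pair of response-element cores printed above.

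Trim56, a ligase linked to STING and cGAS signalling, had 61.8 and 65.1 CPM with Rb1 and 37.1 and 43.8 CPM with vehicle. Both Rb1 libraries lay above both vehicle libraries, and the gene was 1.57-fold higher with Rb1 (log2 fold change 0.65 ± 0.10, adjusted p 7.7e-05). With the trend of counts on gene length removed from each library the difference was 0.14 and did not pass (adjusted p 0.116). In these data long genes tended to be higher with Rb1: the Spearman correlation of log2 fold change with gene length was 0.38 across all 13518 genes and 0.27 across the 40 members. These are descriptions across genes that share the same 4 libraries.

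**Figure D4:**
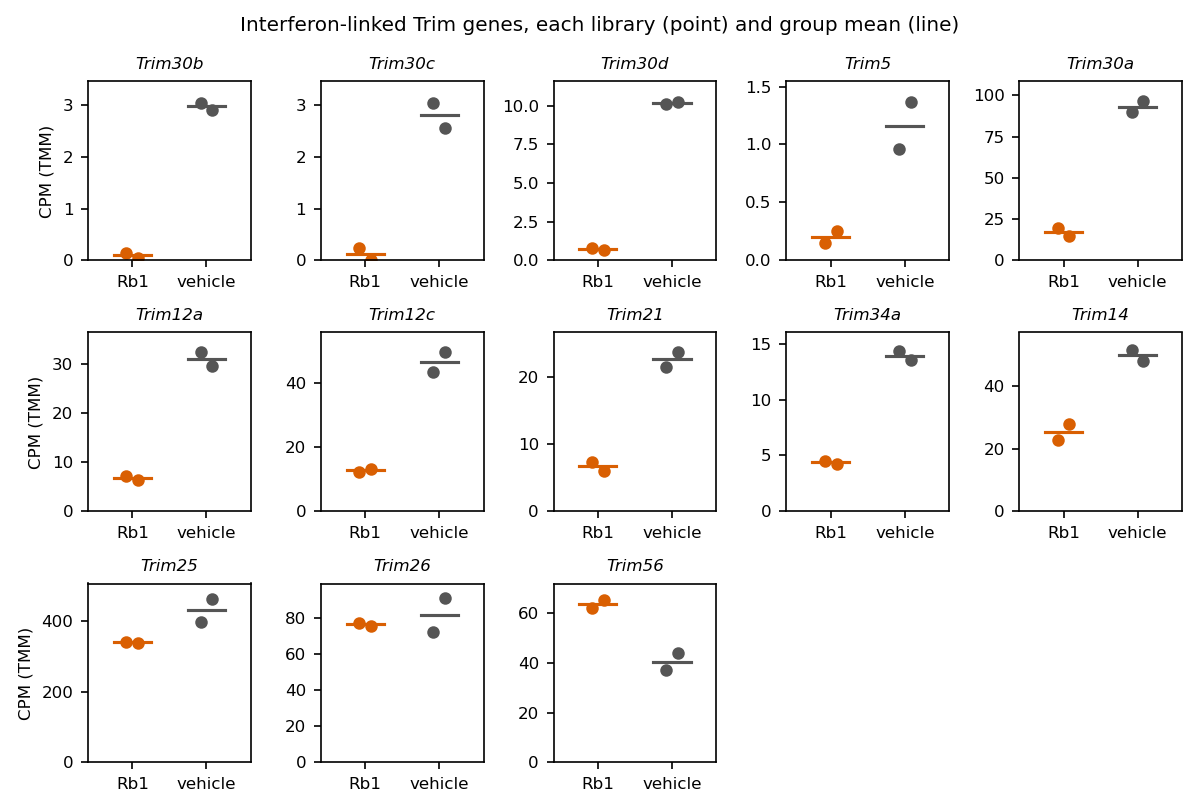
TMM-normalised CPM of each interferon-linked Trim gene tested, with one point per library and a line at the group mean, Rb1 left of vehicle, on axes that start at 0 and differ between panels. The Rb1 points lie below the vehicle points in 11 panels, between them for Trim26 and above them for Trim56.

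Among the members that were not listed as interferon-linked, the largest increases with Rb1 were in Trim37 and Trim44. Trim37 (ENSMUSG00000018548, chromosome 11, 87127077 to 87220683), a MATH-domain ligase that works at centrioles and peroxisomes, had 137 and 138 CPM with Rb1 and 47.5 and 49.0 CPM with vehicle. That is 2.85-fold higher with Rb1 (log2 fold change 1.51 ± 0.08, adjusted p 1.5e-08). Trim44 (ENSMUSG00000027189, chromosome 2, 102300119 to 102407828), which has a ubiquitin-protease-type zinc finger in place of a RING domain, had 190 and 187 CPM with Rb1 and 66.6 and 70.7 CPM with vehicle. It was 2.75-fold higher (log2 fold change 1.46 ± 0.07, adjusted p 1.4e-08). In both genes the gap between groups was many times the difference between replicates, and with the length trend removed the values were 1.14 and 1.26.

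A further 4 members rose at least 2-fold. Trim39, a ligase tied to cell-cycle and apoptosis control, had 38.0 and 36.0 CPM with Rb1 and 17.1 and 14.2 CPM with vehicle (log2 fold change 1.24 ± 0.11, adjusted p 1.6e-06). Trim59, which carries a transmembrane segment, had 42.1 and 41.3 CPM with Rb1 and 17.9 and 17.8 CPM with vehicle (log2 fold change 1.22 ± 0.09, adjusted p 4.1e-07). Neither pair of groups came near to overlapping. Trim17, a ligase studied in neuronal apoptosis, had 2.55 and 1.91 CPM with Rb1 and 0.958 and 0.952 CPM with vehicle (log2 fold change 1.22 ± 0.34, adjusted p 0.0070). This call was lost with DESeq2 (adjusted p 0.0776) and without Rb1 replicate 1 (adjusted p 0.0964), and 17.7% of the 50-base words of Trim17 occur in Hist3h2a, which overlaps it on the same strand. The fourth, Trim24, belongs to the chromatin branch.

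The chromatin branch has 4 members with a PHD finger and bromodomain, and 3 of them rose with Rb1 while 1 fell (median log2 fold change 0.75). Trim24, a coregulator of nuclear receptors, had 34.2 and 36.1 CPM with Rb1 and 16.1 and 18.7 CPM with vehicle (log2 fold change 1.01 ± 0.11, adjusted p 5.4e-06). Trim28, the corepressor that KRAB zinc finger proteins recruit to silence retroelements, had 236 and 233 CPM with Rb1 and 140 and 157 CPM with vehicle (log2 fold change 0.66 ± 0.08, adjusted p 1.1e-05). Trim33, which works with SMAD proteins, averaged 87.6 ± 3.30 CPM with Rb1 and 49.1 ± 2.86 CPM with vehicle (log2 fold change 0.84 ± 0.08, adjusted p 3.2e-06). Trim28 ranked second per length in both groups, at 56.3 ± 0.549 FPKM with Rb1 and 35.5 ± 3.06 FPKM with vehicle. With the length trend removed the log2 fold changes were 0.55 for Trim24, 0.66 for Trim28 and 0.29 for Trim33, each still called.

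Trim66, the fourth of this branch, is best known from the testis. It had 0.250 and 0.103 CPM with Rb1 and 1.92 and 2.2 CPM with vehicle (log2 fold change -3.49 ± 0.49, adjusted p 5.7e-05). Its level was low in both groups, and it had enough counts only through the vehicle libraries. Its log2 fold change was -4.22 without Rb1 replicate 1 and -3.00 without Rb1 replicate 2.

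Of the other lower members 4 more changed at least 2-fold. Trim29, which lacks a RING domain and dampens innate responses in mouse alveolar macrophages, had 0.0999 and 0.258 CPM with Rb1 and 2.93 and 2.91 CPM with vehicle (log2 fold change -3.99 ± 0.46, adjusted p 1.1e-05). Trim7, also known as a glycogenin-binding protein, had 2.75 and 2.63 CPM with Rb1 and 7.48 and 7.26 CPM with vehicle (log2 fold change -1.45 ± 0.19, adjusted p 3.2e-05). The groups did not overlap in either gene, though Trim29 had enough counts only through the vehicle libraries. Trim29 had few reads with Rb1, and its log2 fold change was -3.46 without Rb1 replicate 1 and -4.77 without Rb1 replicate 2.

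Trim62 had 0.949 and 1.39 CPM with Rb1 and 2.45 and 3.33 CPM with vehicle (log2 fold change -1.30 ± 0.33, adjusted p 0.0036). Trim13, anchored in the membrane of the endoplasmic reticulum, had 6.05 and 5.42 CPM with Rb1 and 13.3 and 13.7 CPM with vehicle (log2 fold change -1.24 ± 0.15, adjusted p 1.4e-05). The groups were apart in both genes. Of the Trim13 words 14.2% occur in Gm9359, and Dleu2 overlaps Trim13 on the other strand.

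The remaining 7 called members outside the interferon list, under 2-fold, were Trim28 and Trim33, given above, Trim45, Trim11, Trim3, Trim41 and Trim2. Trim45, the member with a filamin repeat, averaged 18.5 ± 0.131 CPM with Rb1 and 30.9 ± 1.59 CPM with vehicle (log2 fold change -0.74 ± 0.10, adjusted p 4.4e-05). Trim11 had a log2 fold change of -0.41 (adjusted p 0.0016) and Trim3, an NHL-repeat member, one of -0.36 (adjusted p 0.0063). Neither call held with library totals (adjusted p 0.144 and 0.366), and that of Trim3 was also lost without Rb1 replicate 2 (adjusted p 0.0984). Trim2, an NHL-repeat ligase that acts on neurofilament light chain and the one other member with a response-element core, was higher at 0.61 ± 0.22 (adjusted p 0.0267). Its adjusted p was 0.117 without Rb1 replicate 2 and 0.119 when vehicle replicate 2 was left out, both above the threshold, and with the length trend removed its value was -0.38 (adjusted p 0.159).

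Several of the family's more abundant genes did not pass or barely passed. Trim35 had 145 and 134 CPM with Rb1 and 141 and 155 CPM with vehicle, overlapping groups, with a log2 fold change of -0.08 ± 0.08 (adjusted p 0.351). Trim8, which acts in TNF and cytokine signalling, had 81.7 and 78.1 CPM with Rb1 and 91.2 and 86.4 CPM with vehicle (log2 fold change -0.15 ± 0.08, adjusted p 0.102). Without vehicle replicate 1 Trim35 passed at -0.16 (adjusted p 0.0022), and without vehicle replicate 2 Trim8 passed at -0.19 (adjusted p 0.0040).

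Trim27, which acts in endosomal retromer traffic, had 82.2 and 76.5 CPM with Rb1 and 79.1 and 72.0 CPM with vehicle (log2 fold change 0.07 ± 0.08, adjusted p 0.469). Trim32, an NHL-repeat ligase mutated in a human limb-girdle muscular dystrophy, had 44.7 and 41.9 CPM with Rb1 and 41.8 and 48.7 CPM with vehicle (log2 fold change -0.06 ± 0.10, adjusted p 0.569). In both the groups overlapped. Trim41, a ligase of the PRY-SPRY type, had 49.1 and 47.2 CPM with Rb1 and 52.4 and 59.7 CPM with vehicle, without overlap (log2 fold change -0.22 ± 0.09, adjusted p 0.0445). Its adjusted p was above the threshold without Rb1 replicate 1 (0.162), Rb1 replicate 2 (0.290) or vehicle replicate 2 (0.155), and with the replicate number as a block (adjusted p 0.0550). Its model overlaps the highly counted gene Rack1 on the other strand.

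The other 5 tested members that did not pass had log2 fold changes from 0.11 to 0.23. They were Trim47 (adjusted p 0.844), Trim23, which carries an ARF GTPase domain (0.152), Trim65, a ligase for the RNA sensor MDA5 (0.206), Trim16, a partner of galectins in autophagy (0.306), and Trim46, which organises axonal microtubules in neurons (0.111). Trim46 passed as higher without vehicle replicate 2 (0.32, adjusted p 0.0375) and with the length trend removed (0.30, adjusted p 0.0392).

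Members were classed by carboxy-terminal domain, except that 4 listed as lacking a RING domain, Trim14 and Trim16 among them, formed a class of their own. Members of other classes were not checked for a RING domain. The PRY-SPRY class so defined held 36 members, of which 21 were tested. It had 14 lower, 2 higher and 5 that did not pass (median log2 fold change -1.30). Its 11 interferon-linked members tested gave 10 lower and 0 higher with a median of -2.18, and its 10 others gave 4 lower and 2 higher with a median of -0.01. Of the interferon-linked ones, Trim30b, Trim30c and Trim5 had enough counts only through the vehicle libraries and so had to be lower. Over all genes tested 35.7% were higher and 36.3% lower. The other classes had at most 4 tested members each. The NHL class had 1 higher (Trim2), 1 lower (Trim3) and 1 that did not pass (Trim32). The transmembrane pair was split between Trim59, higher, and Trim13, lower. Of the 4 members in the class listed as lacking a RING domain, Trim44 was higher, Trim14 and Trim29 were lower and Trim16 did not pass.

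Summed over the family the level was 1884 and 1841 CPM with Rb1 and 1730 and 1870 CPM with vehicle, and these ranges overlap. The share of the interferon-linked members did not overlap between groups. They made up 25.9% and 26.3% of the family's summed FPKM in Rb1 libraries and 41.5% and 42.9% in vehicle libraries. Per length Trim44 ranked 3 with Rb1 (33.4 FPKM) and 10 with vehicle (12.1 FPKM). Trim37 ranked 6 with Rb1 (19.0 FPKM) and 15 with vehicle (6.63 FPKM), while Trim12c ranked 23 with Rb1 (3.44 FPKM) and 9 with vehicle (12.4 FPKM).

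**Figure D5:**
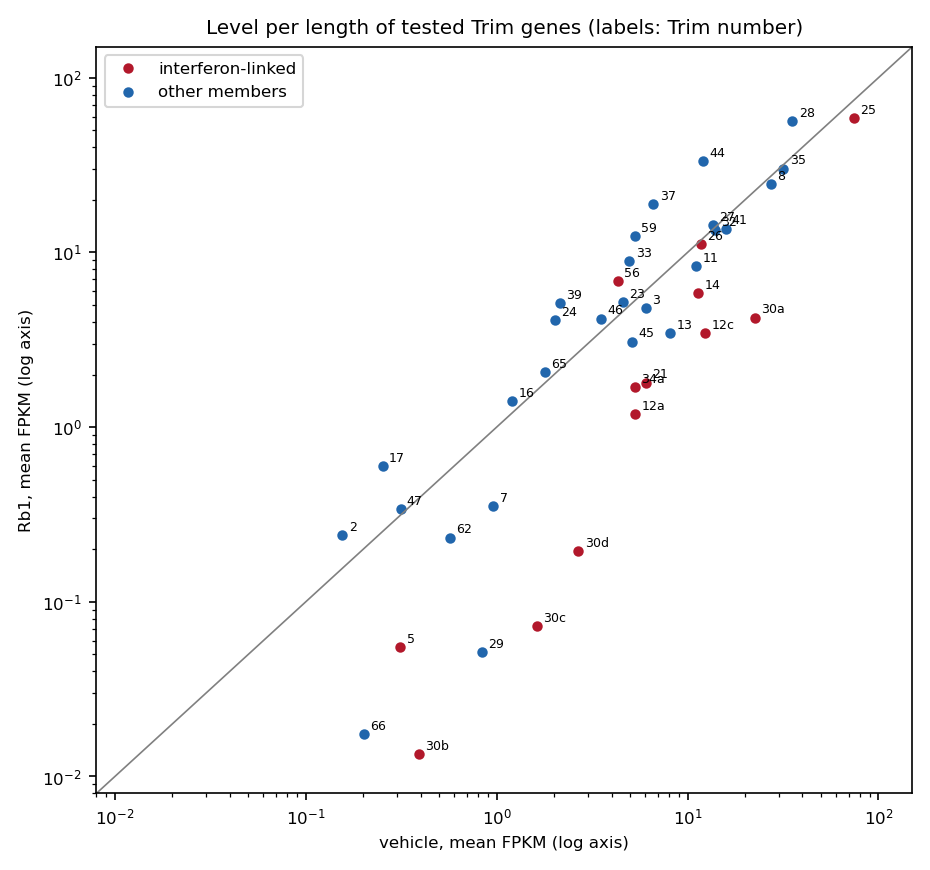
Mean FPKM of the tested Trim genes with Rb1 (y axis) against vehicle (x axis), both on log axes, with the line of equal level; numbers are Trim numbers, red marks interferon-linked and blue the other members. Trim25 and Trim28 lead in both groups, the Trim30 and Trim12 genes lie below the line, and Trim37 and Trim44 lie above it.

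The 28 members not tested had at most 19 counts in any library and at most 37 over the 4 libraries. A total of 12 had no counts in any library: Trim6, Trim9, Trim31, Trim40, Trim42, Trim52, Trim55, Trim60, Trim61, Trim68, Trim75 and Trim80. The other 16 were Trim10, Trim15, Trim34b, Trim36, Trim38, Trim43a, Trim43b, Trim43c, Trim50, Trim54, Trim58, Trim63, Trim67, Trim69, Trim71 and Trim72. Fitted without the count filter, 14 of these 16 did not pass, Trim72 was lower (2 and 0 counts with Rb1, 18 and 7 with vehicle, adjusted p 0.00039) and Trim43c was higher (15 and 6 counts with Rb1, 2 and 0 with vehicle, adjusted p 0.0101). DESeq2 called Trim72 (adjusted p 0.0264) and not Trim43c (adjusted p 0.105). These genes are named because of their values, and of the 50-base words of Trim43c 42.1% occur in its relatives Trim43a and Trim43b.

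Related genes were read for context, from lists chosen with earlier results of these data known. Of 11 genes that encode TRIM-like proteins under other symbols, 2 were tested. Rnf135, a partner ligase of RIG-I, averaged 6.19 ± 0.0756 CPM with Rb1 and 15.9 ± 0.267 CPM with vehicle (log2 fold change -1.36 ± 0.14, adjusted p 3.5e-06). Pml, the organiser of nuclear bodies and an interferon target, averaged 27.3 CPM with Rb1 and 25.8 CPM with vehicle and did not pass (adjusted p 0.460).

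Of 15 genes of the RIG-I and ISG15 axis in which Trim25 works, 12 were lower and 3 higher, with a median log2 fold change of -0.93. Over all genes tested 36.3% were lower and 35.7% higher. The 3 higher genes were Cgas (1.29), Mavs (0.92) and Zc3hav1 (0.40). Isg15, the ubiquitin-like modifier, had 86.2 and 101 CPM with Rb1 and 1424 and 1358 CPM with vehicle (log2 fold change -3.90 ± 0.10, adjusted p 9.1e-11). Usp18, which removes ISG15 from proteins, had a log2 fold change of -3.01, and Irf7, the factor that amplifies type I interferon, one of -2.56. Trim25 itself had -0.34 beside these. Of 9 tested genes of interferon signalling, 5 were lower and 3 higher (median -0.58), beside the same shares over all genes. The 3 higher genes were Irf2 (1.09), Tyk2 (0.31) and Ifnar1 (0.30). Irf1 (-1.33), Irf9 (-1.08) and Stat2 (-1.38), which encode transcription factors of the interferon response, were among the lower ones. Ifnb1 had 2 and 1 counts with Rb1 and 16 and 8 counts with vehicle and was not tested.

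Of 17 genes listed as partners in TRIM28 corepression, not as subunits of a single complex, 15 were higher, 1 was lower and 1 did not pass. Their median log2 fold change was 0.81, and the lower one was Hdac1 (-0.68). Over all genes tested 35.7% were higher and 36.3% lower. With the trend of counts on gene length removed, 13 of the 17 were higher and 1 lower (median 0.58). That fit called 34.9% of all genes tested higher. Cbx5, which encodes a heterochromatin protein, had 226 and 230 CPM with Rb1 and 41.1 and 49.1 CPM with vehicle (log2 fold change 2.34 ± 0.09, adjusted p 2.0e-09). Dnmt1, the maintenance DNA methyltransferase, had a log2 fold change of 2.05, and the remodeller gene Chd3 one of 2.13. Of 13 listed genes of the E2 (ubiquitin-conjugating) family, 7 were lower, 0 higher and 6 did not pass (median -0.29). Among the lower were Ube2n (-0.60), Ube2d3 (-0.51) and Ube2e2 (-0.72). With library totals the E2 genes gave 2 higher and 3 lower (median -0.04, against 0.23 for all genes).

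As to cell identity, 11 of 13 dendritic and leukocyte markers had at least 1 CPM in every library, and Flt3 and Batf3 did not. That list summed to 1578 and 1561 CPM with Rb1 and 2559 and 2572 CPM with vehicle. Cd74 alone averaged 506 CPM with Rb1 and 1055 CPM with vehicle. Of the list's 11 tested genes 9 were lower with Rb1, against 36.3% of all genes tested. Ptprc (log2 fold change 1.11) and Zbtb46 (1.56) were higher. With the trend of counts on gene length removed 7 were lower and 2 higher. Markers of T cells summed to at most 0.238 CPM and those of epithelium to at most 0.119 CPM in any library, with Cd3e, Cd8a, Epcam, Krt8 and Krt18 at 0. The B-cell marker Pax5 had 23 and 21 counts with Rb1 and 96 and 104 counts with vehicle. Fibroblast markers summed to 0.4997 and 0.206 CPM with Rb1 and 7.06 and 7.14 CPM with vehicle, nearly all from Dcn. Col3a1 was at 0 in all libraries. The part of these marker levels in the Trim results was not tested, and in bulk RNA fewer cells of a type and less RNA per cell cannot be told apart.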

How the data were processed

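RNA of DC2.4 cells was sequenced in pairs on an Illumina platform, per the labels' protocols, with 2 libraries after Rb1 and 2 after vehicle. The authors deposited raw counts per gene and FPKM values. Each FPKM equals the count per kb divided by a library constant of 1.09 and 1.09 (Rb1) and 0.908 and 0.943 (vehicle) times the count total. No source used here states the aligner, counter, kit or strand use. As builds, the submitters' processing notes give GRCm39 and mm39, but 98.3% of the 54409 table genes found in GENCODE M21 have its GRCm38 coordinates, as do 66 of the 68 members, so table coordinates are called GRCm38.

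All genes were fitted with edgeR 4.0.16 (quasi-likelihood test, TMM, filterByExpr, robust, group only, 2 residual degrees of freedom, two-sided) in R 4.3.3, and p-values were adjusted by Benjamini-Hochberg for 13518 genes, with calls under 0.05. The SE is the absolute log2 fold change over the square root of F. Floors of 3 counts cover counting error only. Replicates differed by more than sampling noise (chi-square per degree of freedom 2.87 for Rb1, 11.8 for vehicle). The labels call them biological without naming separate cultures, so the p-values reflect only how much these samples vary. Their batch entry holds the replicate number. That number was used to pair samples in the replicate-block fits and the within-replicate ratios, and not in the main fit. Deviations of same-numbered libraries correlated at -0.05 across genes.

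Alternatives were other scalings (relative log expression, library totals), filters, DESeq2 1.42.0, limma 3.58.1 (voom, and trend on log2(FPKM + 1) and log2(FPKM + 0.1) for genes averaging at least 0.5 FPKM), a replicate block, removal of each library's trend on gene length, each library left out, and a narrower and a wider interferon list. The test was checked on simulated counts. One marker result is not reported here. The members and lists were chosen with earlier results of these data known. Values per library are given for tested interferon-linked members, for other called members of at least 2-fold and for the 6 other tested members with the highest mean FPKM, and of each related list up to 3 called members with the smallest p. Called genes that went against most of their related list are also named. Sequences are from RefSeq (GRCm38.p6), and shared words of 50 bases from GENCODE M21 transcripts.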

Additional observations from a re-analysis of the deposited data

How the results depend on the processing

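Across up to 15 alternatives for each of the 40 tested members, 527 results kept their direction and their side of the threshold, 22 lost the call, 13 gained one and 21 changed sign. With library totals 14 members outside the interferon list were higher in place of 9. Their lower members numbered 5 with log2(FPKM + 0.1) and 5 with log2(FPKM + 1) in place of 9, where 21 of the 27 had enough FPKM to be tested. The interferon-linked members called higher numbered 0 with the length trend removed, with and without the replicate block, and 0 in the narrower list, which does not hold Trim56. Leaving out 1 library gave 9 to 11 higher and 18 to 23 lower in the family, 1 to 1 higher and 10 to 12 lower among interferon-linked members, and 8 to 10 higher and 8 to 11 lower among the others. With the replicate block the family gave 10 higher and 19 lower, interferon-linked members 1 and 11 and the others 9 and 8, and the pairing changed no call other than that of Trim41.

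With library totals, which moved the median of all genes to 0.23, sign changes were found for Trim26 (0.15), Trim32 (0.18), Trim35 (0.16), Trim41 (0.0241) and Trim8 (0.10). With the length trend removed, without and with the replicate block, they were found for Trim2 (-0.38 and -0.37), Trim23 (-0.0529 and -0.0535), Trim27 (-0.11 and -0.11), Trim32 (0.0913 and 0.0944), Trim65 (-0.0383 and -0.0381) and Trim8 (0.0040 and 0.0039). With 1 library left out, Trim26 ranged from -0.26 (vehicle replicate 1 out) to 0.08 (vehicle replicate 2 out), Trim32 from -0.18 to 0.0512 for the same libraries, and Trim47 from -0.59 (Rb1 replicate 1 out) to 0.59 (Rb1 replicate 2 out), with -0.20 for vehicle replicate 1. Of these genes only Trim2 and Trim41 had been called. The cause of the sign changes other than those under library totals was not tested. With library totals Trim16, Trim23, Trim27, Trim46 and Trim65 were called higher. The limit to members that reached the filter in both groups was chosen after seeing the data. With 2 libraries per group, the calls of Trim2, Trim3, Trim11, Trim17, Trim25, Trim41 and Trim56 were each lost under at least 1 alternative, and of the 16 members with few counts 2 were called without the count filter.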
